A study of Mus musculus with 115 samples.

Results

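The genes described here encode the complement and coagulation factors of plasma, and they were taken from a list of 39 symbols that named the components of both cascades and their main inhibitors. A probe was present for 38 of the 39 genes, for 36 of them under the listed symbol and for 2 under an older one (Cfb as H2-Bf and Cfp as Pfc). The expression of C8g was not analysed here, while its promoter is among those counted below. In liver 37 of the genes had a probe with enough detected signal to be tested, among 8510 tested symbols of 18120 on the array. In inguinal adipose tissue 35 genes were tested, among 10871 symbols.

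The samples came from mice of 4 genotypes on a C57BL/6J background, a model in which the type of gonad is separated from the sex chromosomes. XX and XY- mice have no Sry and form ovaries, and XXSry and XY-Sry mice carry Sry as an autosomal transgene and form testes, the Y chromosome of both XY lines having lost its own Sry. All mice, the controls included, were gonadectomised at 75 days and received at once a Silastic capsule that was blank or held testosterone (5 mM) or estradiol (50 µg), and tissues were taken 3 weeks later. RNA of 60 livers (5 arrays in each of 12 groups of genotype and capsule) and of 55 inguinal fat samples (3 to 5 arrays a group) was hybridised to Illumina bead arrays. Since every mouse was gonadectomised, a difference by gonad type covers what gonads did before 75 days together with the presence of the Sry transgene, and these cannot be told apart. The labels do not say outright that each array is a separate animal, so the p-values measure the spread between these samples.

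Complement is a cascade of plasma proteins that marks and lyses microbes. C1q, mannose-binding lectins with their MASP proteases, and factor B with properdin start the classical, lectin and alternative routes, all of which meet at C3, and C5 to C9 then assemble the membrane attack complex. Coagulation is a parallel cascade of vitamin K-dependent and contact-phase proteases that ends with thrombin and fibrin, held back by antithrombin, heparin cofactor II and the protein C system and reversed by plasmin. Hepatocytes make most of these proteins, while C1q and properdin come from macrophages and other myeloid cells, and von Willebrand factor and thrombomodulin from endothelium.

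Levels are given as log2 of the background-corrected and quantile-normalised bead intensity, and a difference is one between mean log2 levels, with the 4 genotypes (for a capsule) or 6 pairs of groups (for gonad type) weighted equally. A gene was represented by its tested probe with the highest mean level, and was called when the limma p-value, adjusted by the Benjamini-Hochberg method over all tested probes of the tissue, was below 0.05. An offset of 16 was added before the logarithm, so differences of dim probes are understated. The testosterone and estradiol comparisons share the blank-capsule arrays.

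The liver label was borne out by its markers. A hepatocyte score, the mean log2 level of marker genes such as Alb and Apoa1, lay between 12.89 and 13.39 in the liver arrays. It lay between 5.02 and 12.97 in the adipose arrays, where 7 arrays stood more than 2 above the median of 5.99. Some arrays, 2 of liver and 1 of fat, went against their labels or their group. In the liver array labelled XY-Sry testosterone replicate 5 the level of Xist was 6.63, within the 6.35 to 7.40 of XX and XXSry arrays. It was above the 4.43 to 5.45 of the 29 other XY arrays, and Eif2s3y was 4.53 against at least 6.76 in those arrays. Ddx3y was 7.50, between the highest of the XX and XXSry arrays (7.43) and the lowest of the other XY arrays (9.09). The liver array labelled XY- estradiol replicate 5 had a C6 level of 10.58, where the 4 others of its group lay between 8.19 and 8.74. The adipose array labelled XX estradiol replicate 1 has label fields that disagree on its capsule, and the 8 estradiol calls for the listed genes in fat were kept with it counted as testosterone. Adipocyte markers gave a score of 10.94 to 12.55 in the adipose arrays, and skeletal muscle markers one of 6.14 to 13.93. Without both liver arrays every call named below for the capsules and gonad types in liver was kept.

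The largest testosterone differences in liver were in 4 terminal components of complement, and their promoters are printed to show what the windows before their start sites hold. They are the 250 bases upstream of each RefSeq start in GRCm38.p6, written 5′ to 3′ on the gene's strand, at chr15:4726960-4727209 for C6 (plus strand), chr4:104876399-104876648 for C8a (minus strand), chr4:104766067-104766316 for C8b (plus strand) and chr15:6445096-6445345 for C9 (plus strand). Capitals mark matches, on either strand, to the STAT motif TTCNNNGAA, the HNF1 core GTTAAT or the steroid receptor core AGAACA; the motifs do not overlap one another in these windows.
C6: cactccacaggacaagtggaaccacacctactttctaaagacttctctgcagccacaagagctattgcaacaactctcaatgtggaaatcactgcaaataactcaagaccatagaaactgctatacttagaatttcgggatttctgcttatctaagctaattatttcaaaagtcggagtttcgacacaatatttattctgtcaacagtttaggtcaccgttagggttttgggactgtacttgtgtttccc
C8a: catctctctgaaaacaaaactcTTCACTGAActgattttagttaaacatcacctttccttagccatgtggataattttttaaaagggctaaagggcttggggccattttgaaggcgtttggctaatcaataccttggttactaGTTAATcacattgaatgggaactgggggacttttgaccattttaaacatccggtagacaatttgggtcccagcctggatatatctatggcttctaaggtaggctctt
C8b: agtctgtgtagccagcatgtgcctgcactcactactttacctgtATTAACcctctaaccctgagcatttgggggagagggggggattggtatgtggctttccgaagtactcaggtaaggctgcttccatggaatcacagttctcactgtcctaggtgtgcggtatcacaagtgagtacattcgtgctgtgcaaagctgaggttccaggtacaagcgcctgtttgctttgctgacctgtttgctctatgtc
C9: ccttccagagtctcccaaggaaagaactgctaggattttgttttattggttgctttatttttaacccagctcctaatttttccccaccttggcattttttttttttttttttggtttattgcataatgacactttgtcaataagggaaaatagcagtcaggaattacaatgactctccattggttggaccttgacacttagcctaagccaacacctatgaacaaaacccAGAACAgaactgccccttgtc
C8a held one match to the STAT motif and one to the HNF1 core, C8b one to the HNF1 core and C9 one to the receptor core. C6 held none of the 3 motifs. The STAT motif was found in 7.02% of 32851 promoters of this length in the table, the HNF1 core in 6.43% and the receptor core in 16.1%. Among the 28 listed genes with an entry, 6, 6 and 9 held them. A match describes the letters of the window and not a site of binding.

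In liver, testosterone raised 7 of the 37 tested genes and lowered 9. Of the 8510 genes tested in liver, each by its brightest probe, 7.86% were higher and 12.2% lower, and the median difference was -0.0015 over the 37 and 0.0030 over all probes. The listed genes therefore did not move one way as a group, and 4 of the 16 changed by at least 2-fold, all of them genes of the membrane attack complex that rose.

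C6, which joins C5b to begin the membrane attack complex, had the largest difference. Its level ran from 7.74 to 9.17 in the 20 blank-capsule livers (median 8.43) and from 9.63 to 11.78 in the 20 testosterone livers (median 11.14). Every testosterone array was thus above every blank array. The difference was 2.56 ± 0.16 (SE), a 5.91-fold rise (limma, adjusted p = 1.47e-19), and it lay between 2.30 and 2.89 in the 4 genotypes. A second C6 probe gave 3.02 ± 0.18 (adjusted p = 3.71e-20).

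C8b, the beta chain of C8, which inserts into the target membrane, had levels of 10.23 to 11.48 with blank capsules (median 11.01) and 11.60 to 12.84 with testosterone (median 12.36). The groups did not overlap, and C8b rose by 1.44 ± 0.11, or 2.71-fold (limma, adjusted p = 1.14e-15). C8a, the alpha chain of the same protein, ran from 6.61 to 8.64 (median 7.64) and from 7.93 to 10.05 (median 9.09). Its groups overlapped at their edges, and it rose by 1.50 ± 0.19, or 2.82-fold (adjusted p = 1.64e-08). C9, whose copies polymerise into the pore, was already abundant in blank livers, at 12.30 to 13.21 (median 12.72), and reached 13.56 to 13.94 with testosterone (median 13.80). The C9 groups did not overlap, with a rise of 1.02 ± 0.08, or 2.02-fold (adjusted p = 1.92e-16), and its 2 other probes rose by 1.11 and 1.30. Each of these 4 genes was higher in all 4 genotypes. On the 3 slides that held both capsules the difference lay between 1.92 and 2.80 for C6, 0.72 and 1.55 for C8a, 1.14 and 1.41 for C8b and 0.67 and 1.24 for C9, and all 16 called genes kept their direction on each of those slides.

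**Figure D1:**
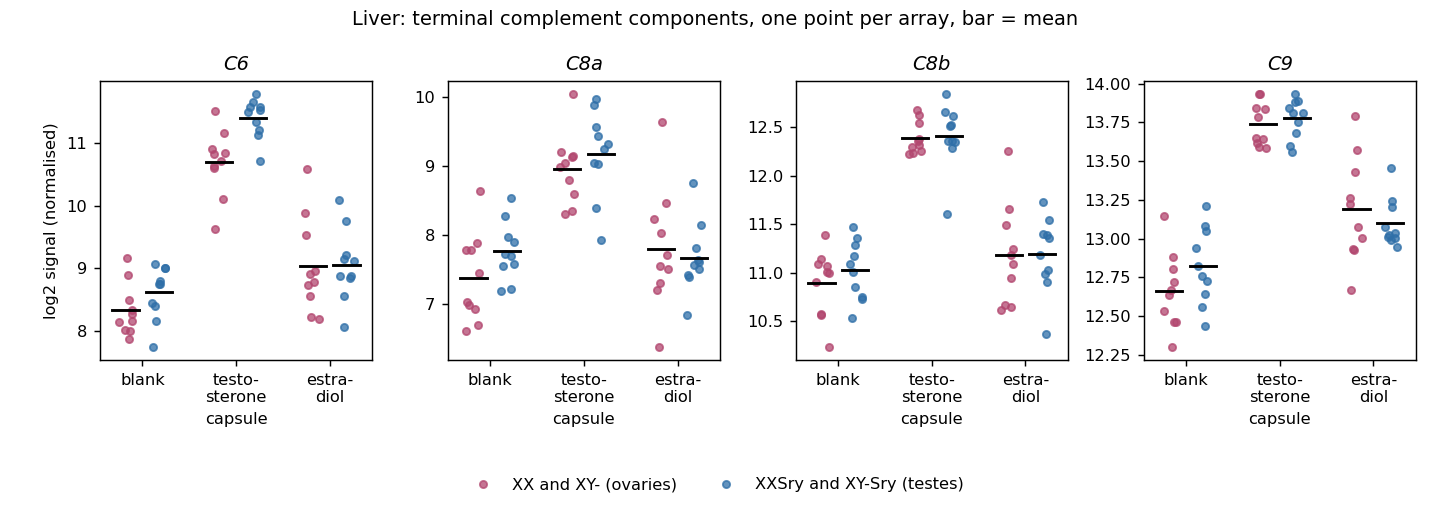
Normalised log2 signal of C6, C8a, C8b and C9 in each of 60 liver arrays (points), by capsule and, in colour, by gonad type, with bars at the means of 10 arrays; the vertical scale differs between panels. For C6, C8b and C9 every testosterone array lies above every blank array, as with the C6 ranges of 9.63 to 11.78 and 7.74 to 9.17, and C8a overlaps at its edges.

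The other genes that rose in liver were smaller in effect. F11, the contact-phase zymogen factor XI, ran from 9.52 to 11.15 with blank capsules (median 10.38) and from 10.60 to 11.53 with testosterone (median 11.15). The groups overlapped, and the rise was 0.76 ± 0.09, or 1.70-fold (limma, adjusted p = 7.41e-09), with 0.86 and 0.56 from 2 further probes. Mbl1, a mannose-binding lectin, rose by 0.27 ± 0.08 (adjusted p = 0.0145). Masp2, the protease that cleaves C4 and C2 in the lectin route, rose by 0.27 ± 0.08 (adjusted p = 0.0103), but its other probe gave -0.11 and was not called.

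Among the genes that fell, the largest changes were in the start of the lectin route and of the extrinsic pathway of clotting. Mbl2, the second mannose-binding lectin, ran from 10.96 to 12.36 with blank capsules (median 11.58) and from 10.23 to 11.74 with testosterone (median 10.99), and fell by 0.70 ± 0.12, a 1.63-fold change (limma, adjusted p = 1.25e-05). F7, factor VII, which tissue factor activates, ran from 10.40 to 11.33 (median 10.81) and from 9.55 to 10.61 (median 10.11). The F7 groups overlapped only at their edges, and it fell by 0.67 ± 0.08, a 1.59-fold change (adjusted p = 1.50e-08). The 2 lectins thus moved in opposite directions, Mbl1 up and Mbl2 down.

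Over the 4 genotypes together, the myeloid genes were lower with testosterone as well. Cfp, properdin, which stabilises the alternative-route convertase, differed by -0.49 ± 0.12 (limma, adjusted p = 0.00189). C1qa and C1qb, chains of C1q, each differed by -0.35, with adjusted p-values of 0.0247 and 0.0123, and each was higher in 1 of the 4 genotypes. The remaining called decreases were F13b (-0.32, the carrier subunit of factor XIII), Serpinc1 (-0.31, antithrombin), C3 (-0.24) and Serpinf2 (-0.19, alpha2-antiplasmin). For Serpinc1 and Serpinf2 the other probes, at -0.00, -0.14 and 0.01, were not called. C1qb and Serpinf2 were not called when the slide entered as a fixed block (adjusted p = 0.0617 and 0.079). C1qa, C3, Serpinf2, Mbl1 and Masp2 were not called when each array was centred on its own median.

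Macrophage markers moved beside C1q and properdin. With testosterone 4 of 10 tested macrophage markers fell, with a median difference of -0.31 and no increase called. Their summed level ran from 4097 to 18130 with blank capsules and from 3241 to 9095 with testosterone. In the ovary lines their mean log2 level averaged 8.30 with blank capsules and 7.68 with testosterone, and in the testis lines 7.50 and 7.49. Both tested lymphocyte markers also fell (median -0.52), with a summed level of 192 to 351 with blank capsules and 194 to 275 with testosterone, and 2 of 8 endothelial markers fell (median -0.22). The part of these cells in the result for the myeloid genes was not tested. In bulk tissue, fewer cells of a type and less RNA per cell cannot be told apart.

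The fibrinogen chains and most of the central clotting factors did not pass the test for testosterone. Differences were -0.02 for Fga, 0.03 for Fgb and 0.24 for Fgg, 0.10 for F2 (prothrombin), 0.07 for F9, -0.15 for F10 and -0.20 for F5. F5 lay at the edge of the threshold (adjusted p = 0.0692): it was called lower with the slide as a fixed block (-0.26, adjusted p = 0.0106) or a random block (-0.24, adjusted p = 0.0160), without background correction (-0.18, adjusted p = 0.0462) and with only the testosterone and blank arrays (-0.20, adjusted p = 0.0494). C4b and Pros1 (protein S) stood at -0.00 and 0.00. C4b has a near-identical neighbour, so its probe may read both. Probes disagreed for 2 further genes. The brightest Cpb2 probe gave 0.17 and was not called, while a dim one gave 0.53 (adjusted p = 0.00849); with the slide as a fixed block the brightest gave 0.29 (adjusted p = 0.0340). Likewise, for Kng1, kininogen, the brightest gave -0.05 and a dim one -0.38 (adjusted p = 0.000975). Thbd was not tested in liver.

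**Figure D2:**
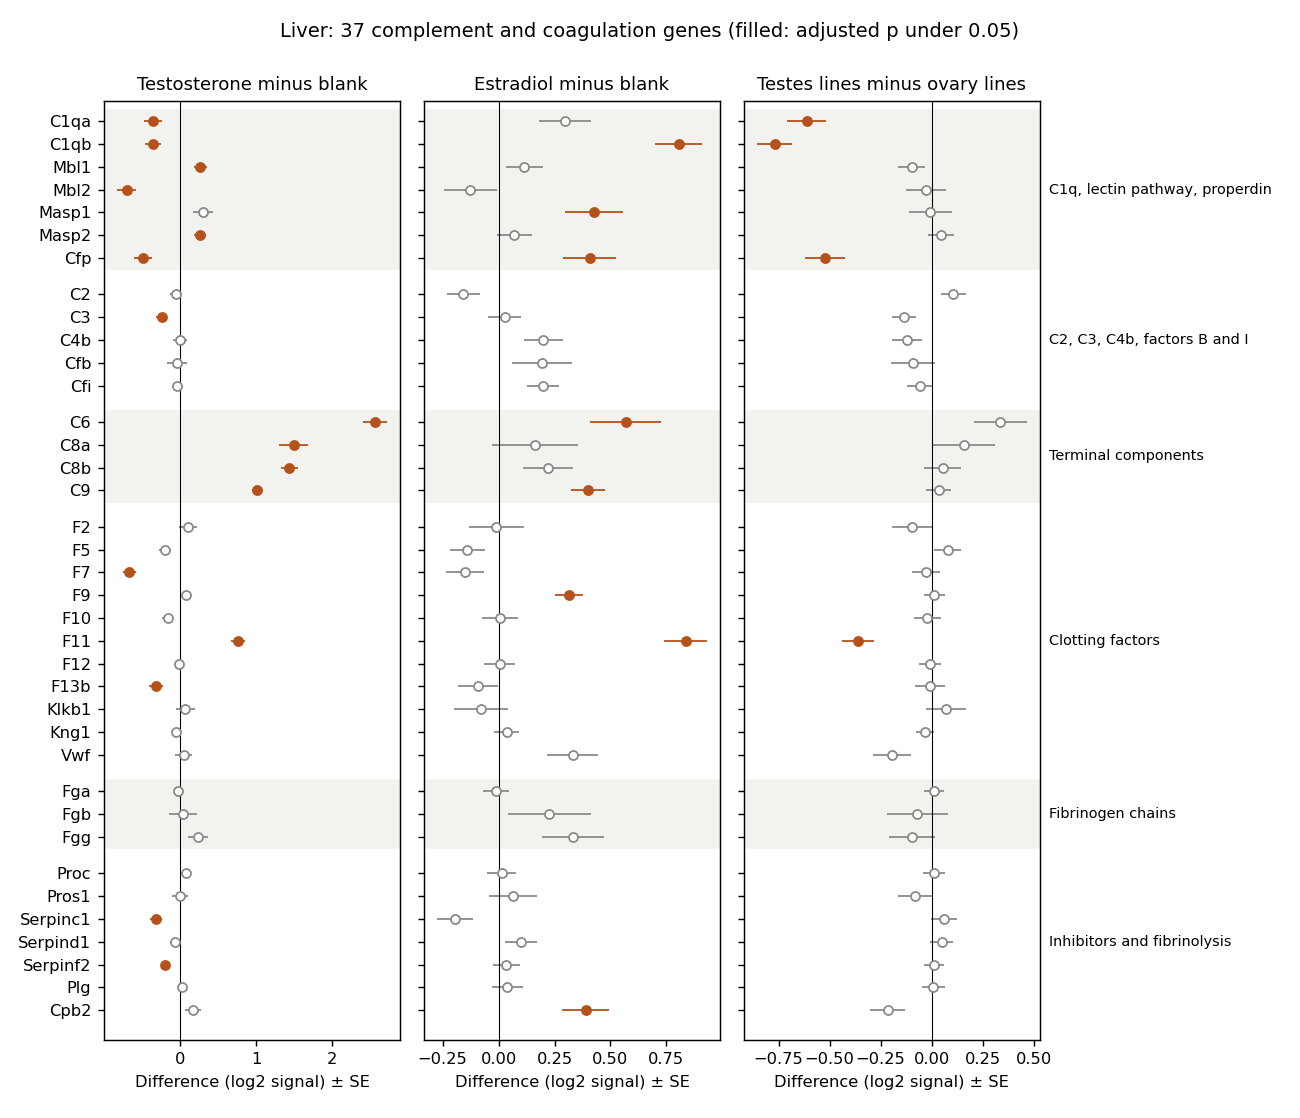
Log2 difference in liver of each tested gene for testosterone (left), estradiol (middle) and gonad type (right), with bars of 1 SE, filled points for genes called at an adjusted p below 0.05, and genes ordered by role; the horizontal scale differs between panels. C6 stands farthest from 0 with testosterone (2.56), F11 with estradiol (0.84) and C1qb by gonad type (-0.77).

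With estradiol, 8 of the 37 genes rose in liver and none of the 37 passed the limma test as lower, with 15 at an unadjusted p below 0.05 in either direction. Of all genes tested, 3.7% were higher and 3.38% lower. The median difference was 0.10 for the genes and -0.016 for all probes. When each array was centred on its own median, the median difference of all probes was -0.18. With that scaling 2 genes were higher (C1qb and F11) and 3 lower (C2, F7 and Serpinc1). The split by direction thus depends on the scaling. On both slides that held blank and estradiol arrays all 8 genes were higher.

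F11 had the largest difference with estradiol. It ran from 10.52 to 12.09 (median 11.16) against the blank range of 9.52 to 11.15, and rose by 0.84 ± 0.09, or 1.78-fold (limma, adjusted p = 9.31e-09). C1qb rose by 0.80 ± 0.10, or 1.75-fold (adjusted p = 3.39e-07). Cfp rose by 0.41 ± 0.12 (adjusted p = 0.0248), and was higher in 3 of the 4 genotypes. C1qa, at 0.30, was not called (adjusted p = 0.116), but with the slide as a fixed block it was 0.48 (adjusted p = 0.00974), and with a random block 0.40 (adjusted p = 0.0211). Of the 10 macrophage markers 8 rose with estradiol, with a median difference of 0.63, and their summed level was 6894 to 25238 against 4097 to 18130 in blank livers. Their part in the rise of C1qb and Cfp was not tested.

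Terminal components were also among the estradiol calls. C6 ran from 8.07 to 10.58 (median 8.89) and rose by 0.57 ± 0.16 (limma, adjusted p = 0.0173). Without XY- estradiol replicate 5 and the other liver array that stood apart, the difference was 0.46 (adjusted p = 0.0283). C9 rose by 0.40 ± 0.08 (adjusted p = 0.000268), but its other probes, at 0.33 and 0.31, were not called. C8a and C8b, at 0.16 and 0.22, were not called.

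Of the clotting genes, Cpb2, which encodes the fibrinolysis inhibitor carboxypeptidase B2, ran from 12.26 to 14.19 (median 12.65) with estradiol and from 11.81 to 12.80 (median 12.33) with blank capsules. The groups overlapped, and Cpb2 rose by 0.39 ± 0.10 (limma, adjusted p = 0.0135), with 2 of its 3 other probes called. F9, factor IX, ran from 12.68 to 13.49 (median 12.95) against 12.48 to 12.98 (median 12.67) and rose by 0.32 ± 0.06 (adjusted p = 0.000719). Masp1, a protease of the lectin route, rose by 0.43 ± 0.13 (adjusted p = 0.0342), but with the slide as a fixed block it was 0.26 (adjusted p = 0.159), and it lost its call in 13 of the 60 fits that left out 1 array. Vwf (0.33, adjusted p = 0.0644) and Cfi (0.20, adjusted p = 0.0888) were the nearest genes that were not called. With the slide as a fixed block Cfi was 0.24 (adjusted p = 0.0151), Fgg 0.44 (adjusted p = 0.00232) and Cfb 0.35 (adjusted p = 0.0373), all called, and Cfi and Fgg were also called with a random block. The fixed block gave 11 calls in place of 8.

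By gonad type, 4 of the 37 genes were lower in livers of the Sry lines and none of the 37 was called higher by limma, with 8 at an unadjusted p below 0.05 in either direction. Of all genes tested 0.635% were higher and 3.25% lower. The median difference was -0.023 for the genes and 0.015 for all probes. Of the 4 genes, 3 are the myeloid ones and the other is F11.

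C1qb differed by -0.77 ± 0.09 (limma, adjusted p = 1.61e-09). With blank capsules it ran from 10.28 to 11.73 in the ovary lines (median 10.61, n = 10) and from 9.39 to 9.87 in the testis lines (median 9.61, n = 10), with no overlap. With testosterone the ranges were 9.33 to 10.47 and 9.12 to 10.05, and with estradiol 10.49 to 12.17 and 10.01 to 11.11, so the lines overlapped under both hormones. C1qa differed by -0.61 ± 0.09 (adjusted p = 5.42e-06), with blank-capsule medians of 7.68 and 6.84. Cfp differed by -0.52 ± 0.10 (adjusted p = 0.000141), with estradiol medians of 12.24 in the ovary lines and 11.48 in the testis lines. F11 differed by -0.36 ± 0.08 (adjusted p = 0.0012), and its 2 other probes by -0.43 and -0.39; it was not called with median centring. Its blank-capsule medians were 10.66 and 10.15, and its testosterone medians 11.20 and 11.04. All 4 genes were lower in the testis lines on each of the 8 slides, with differences from -1.03 to -0.56 for C1qb and from -0.49 to -0.16 for F11.

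**Figure D3:**
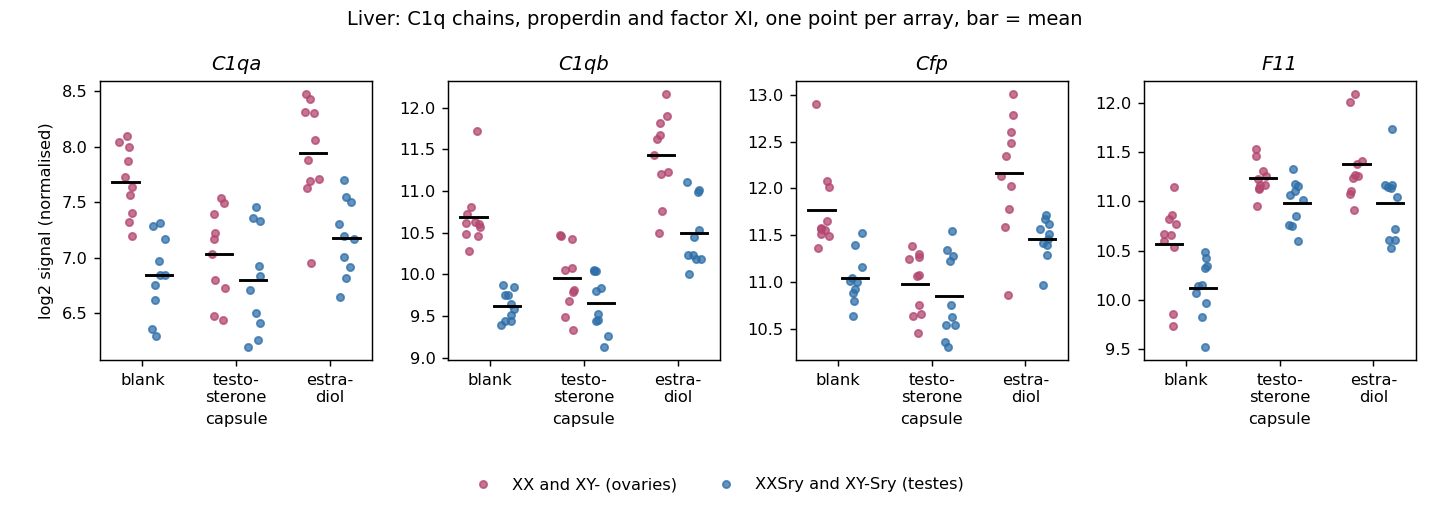
Normalised log2 signal of C1qa, C1qb, Cfp and F11 in liver, by capsule and, in colour, by gonad type (10 arrays each), with each array as a point and a bar at the mean. With blank capsules the C1qb ranges of the ovary and testis lines do not overlap (10.28 to 11.73 and 9.39 to 9.87).

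Macrophage markers again moved with these genes: 9 of 10 were lower in the testis lines, with a median difference of -0.60, and their summed level was 3783 to 25238 in the ovary lines and 3241 to 14348 in the testis lines. Both lymphocyte markers were lower too (median -0.58), at a summed level of 201 to 368 and 192 to 273. Their part was not tested. C6, at 0.34 ± 0.13, was not called (limma, adjusted p = 0.188), although its dimmer probe was (0.53, adjusted p = 0.0223). Without the 2 liver arrays that stood apart the main C6 probe gave 0.39 and was called (adjusted p = 0.0324). XY- estradiol replicate 5, an ovary-line array, was set apart by its own high C6 level. That call thus follows in part from the choice of arrays and is no separate result.

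Neither the sex chromosomes nor the interactions gave a called gene in liver. No gene of 37 was called by limma for the sex chromosomes (1 at an unadjusted p below 0.05, and 0.2% of all genes tested called), for testosterone by gonad type (4 unadjusted, 0.129% of all genes) or for estradiol by gonad type (4 unadjusted, 0.0823% of all genes). The effect of a hormone on these genes was therefore not shown to differ between gonad types. C2, the protease of the classical convertase, had the smallest p for estradiol by gonad type, with an interaction of -0.58 ± 0.15 (adjusted p = 0.0968). Its median was 11.77 in blank ovary lines, 12.13 in blank testis lines, 11.71 in estradiol ovary lines and 11.67 in estradiol testis lines. C1qb had an interaction with testosterone of 0.77 ± 0.21 (adjusted p = 0.218). Its testosterone difference was thus higher in the testis lines than in the ovary lines, though the interaction was not called.

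Within groups the genes of liver did not vary as one block. After each group's mean was removed, the correlation over 60 arrays had a median of 0.08 over 703 pairs of the 38 genes on the array, and 14 pairs lay above 0.6. The highest were F2 with Fgg (0.77), C6 with C8a (0.73), Cfb with Fgg (0.69) and C8a with C8b (0.67), and C1qb with Cfp reached 0.64. These arrays share slides and normalisation, so the correlations only describe them.

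Other genes of the same cascades, from a separate list, were also examined. Of 34 tested in liver, testosterone raised 4 and lowered 7, estradiol raised 4 and lowered 1, and in the testis lines 1 was higher and 3 lower, where the shares over all genes tested were those given above: 7.86% and 12.2%, 3.7% and 3.38%, and 0.635% and 3.25%. Of the genes that rose with testosterone, F2r, a thrombin receptor, differed by 0.51, and Serpine2, the inhibitor protease nexin 1, was detected in 9 of 20 testosterone and 1 of 20 blank livers, too near background for a size. The largest decreases were in C1qc, the third C1q chain (-0.47), and Fcna, a ficolin of the lectin route (-0.45). Hc, which encodes C5 and was picked out after its value was seen, rose by 0.45 ± 0.09 (limma, adjusted p = 0.000197). With estradiol the largest were Vsig4, a complement receptor of macrophages (0.75), and C1qc (0.69), and Plau was called lower, detected in 2 of 20 estradiol and 11 of 20 blank livers. By gonad type C1qc and Vsig4 were lower in the testis lines (-0.72 and -0.65), and Serpine2 was called higher, detected in 8 of 30 and 3 of 30 livers. Vsig4 is also among the macrophage markers counted above, so its changes are not separate from theirs.

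In inguinal fat, many of the listed genes followed the amount of liver transcripts in the array. Over the 55 arrays, 21 of the 35 tested genes had a correlation with the hepatocyte score above 0.7, 4 lay between 0.3 and 0.7, and 10 lay within 0.3 of 0. Fga, for example, had a correlation of 0.97. It ran from 10.08 to 14.41 in the 7 arrays with a high score (median 11.31) and from 4.80 to 9.42 in the 48 others (median 5.73), and its median in liver was 14.48. Plg (plasminogen, 0.95), C9 (0.94), Kng1 (0.91) and Serpinf2 (0.96) behaved alike. The count of 21 includes genes detected only in the high-score arrays, named below, whose correlation follows from the detection filter and is no separate result.

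XY-Sry testosterone replicate 1, whose score of 12.97 lay inside the range of livers, was the highest adipose array for 25 of the 35 genes. The others with a high score were XXSry blank 1, XX testosterone 4, XXSry testosterone 5, XX estradiol 1, XXSry estradiol 1 and XY-Sry estradiol 1, at 8.19 to 10.27. In the 48 other arrays, Mbl1, Mbl2, F5, F11, F12, F13b, Serpind1, Serpinc1, Cpb2 and Klkb1 were detected in none. They passed the detection filter only through the high-score arrays, and they count among the 35 genes tested in fat. They are also among the 25 genes highest in XY-Sry testosterone replicate 1, which follows in part from that filter. The genes whose level had no such relation to the score were C1qa (-0.02), C1qb (-0.05), C4b (0.02), C6 (0.18), C3 (-0.18), Cfp (-0.21), Pros1 (-0.15), Vwf (-0.18), C2 (0.29) and Cfb (0.28). All 9 genes called in fat below are among these 10, and Vwf is the other.

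**Figure D4:**
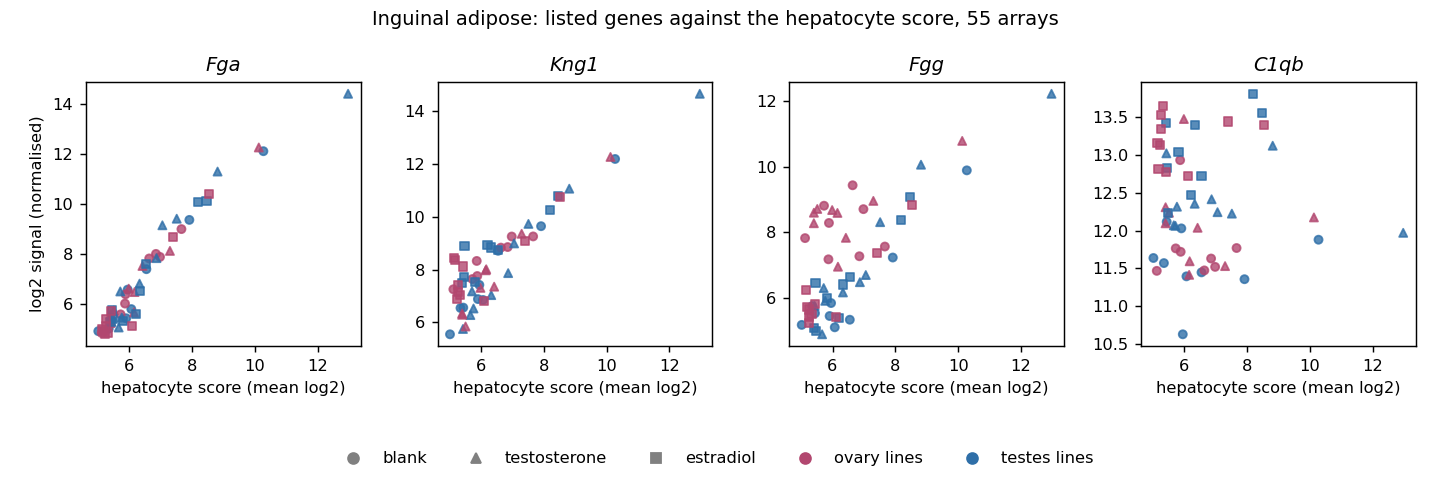
Normalised log2 signal of Fga, Kng1, Fgg and C1qb in 55 adipose arrays against the hepatocyte score (mean log2 signal of hepatocyte markers), with the capsule as the shape and the gonad type as the colour of each point. Fga and Kng1 follow the score (correlations 0.97 and 0.91), Fgg follows it less closely (0.74), and C1qb does not (-0.05).

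With testosterone, 5 of the 35 genes rose in fat and none of the 35 was called lower by limma, with 7 at an unadjusted p below 0.05. Of the 10871 genes tested in fat 2.18% were higher and 2.95% lower. The median difference was 0.42 over the genes and -0.016 over all probes, and the former includes the genes that followed the hepatocyte score. C6 ran from 5.77 to 8.56 in 17 blank arrays (median 7.39) and from 7.29 to 10.28 in 19 testosterone arrays (median 8.68), and rose by 1.11 ± 0.19, or 2.15-fold (adjusted p = 0.000148). C4b, the central component of the classical and lectin routes, ran from 11.16 to 12.91 (median 12.13) and from 12.47 to 13.67 (median 13.23), and rose by 1.01 ± 0.11, or 2.01-fold (adjusted p = 1.05e-08). Both overlapped between the capsules, and both kept their call without the 7 high-score arrays, at 1.08 (adjusted p = 0.000795) and 1.02 (adjusted p = 6.95e-07). On the 2 slides that held both capsules C6 differed by 0.86 and 1.29 and C4b by 0.94 and 1.48.

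The other 3 increases were less firm. C1qa rose by 0.74 ± 0.21 (limma, adjusted p = 0.0244), C1qb by 0.58 ± 0.16 (adjusted p = 0.026) and C2 by 0.26 ± 0.07 (adjusted p = 0.0284). With the slide as a fixed block their adjusted p-values were 0.200, 0.189 and 0.214, and 2 genes were then called. On the same 2 slides C1qa differed by -0.06 and 1.52, C1qb by 0.28 and 1.12 and C2 by -0.01 and 0.62. Without the 7 high-score arrays C1qa and C1qb were not called (0.0904 and 0.0577). Without XY-Sry blank replicate 2 all 3 lost their call, leaving 2 of the 5, and without XX blank replicate 2 a count of 3 remained. C2 alone was lost without XY- blank replicate 4 or XX blank replicate 3.

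With estradiol, 8 of the 35 genes rose in fat and none of the 35 was called lower by limma, with 9 at an unadjusted p below 0.05. Of all genes tested 10.3% were higher and 11.5% lower, and the medians were 0.019 for the genes and -0.016 for all probes. C1qa ran from 8.0 to 9.93 with blank capsules (median 9.09) and from 9.75 to 11.52 with estradiol (median 10.85), and rose by 1.73 ± 0.21, or 3.32-fold (adjusted p = 8.13e-09). C1qb ran from 10.63 to 12.93 (median 11.63) and from 12.23 to 13.81 (median 13.16), and rose by 1.46 ± 0.16, or 2.76-fold (adjusted p = 1.50e-09). For both the ranges overlapped only at their edges.

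C6 ran from 8.23 to 9.51 with estradiol (median 8.88), against a blank median of 7.39, and rose by 1.36 ± 0.19, or 2.57-fold (limma, adjusted p = 3.72e-07). C4b ran from 12.64 to 13.44 (median 13.01) and rose by 0.85 ± 0.11, or 1.81-fold (adjusted p = 7.54e-08). Without the 7 high-score arrays C1qa, C1qb, C6 and C4b rose by 1.68, 1.38, 1.40 and 0.88, all called. On the 2 slides with both capsules the 8 genes were all higher, C1qa by 1.07 and 1.52 and C6 by 1.12 and 1.20. Cfp ran from 12.91 to 13.90 (median 13.37) against 11.90 to 13.29 (median 12.75) and rose by 0.64 ± 0.13 (adjusted p = 0.00029). Pros1, the cofactor of protein C, rose by 0.58 ± 0.14 (adjusted p = 0.0022). Cfb, the alternative-route protease, rose by 0.57 ± 0.17 (adjusted p = 0.0137), and C3 by 0.35 ± 0.09 (adjusted p = 0.00559). Cfb was not called with the slide as a fixed block (0.23, adjusted p = 0.323) or without the high-score arrays (0.49, adjusted p = 0.0539). Vwf, at 0.34, was not called (adjusted p = 0.110) but was with the slide as a fixed block (0.50, adjusted p = 0.0268) or a random block (0.45, adjusted p = 0.0297). Pros1 was not called when arrays were centred on their medians (adjusted p = 0.105).

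**Figure D5:**
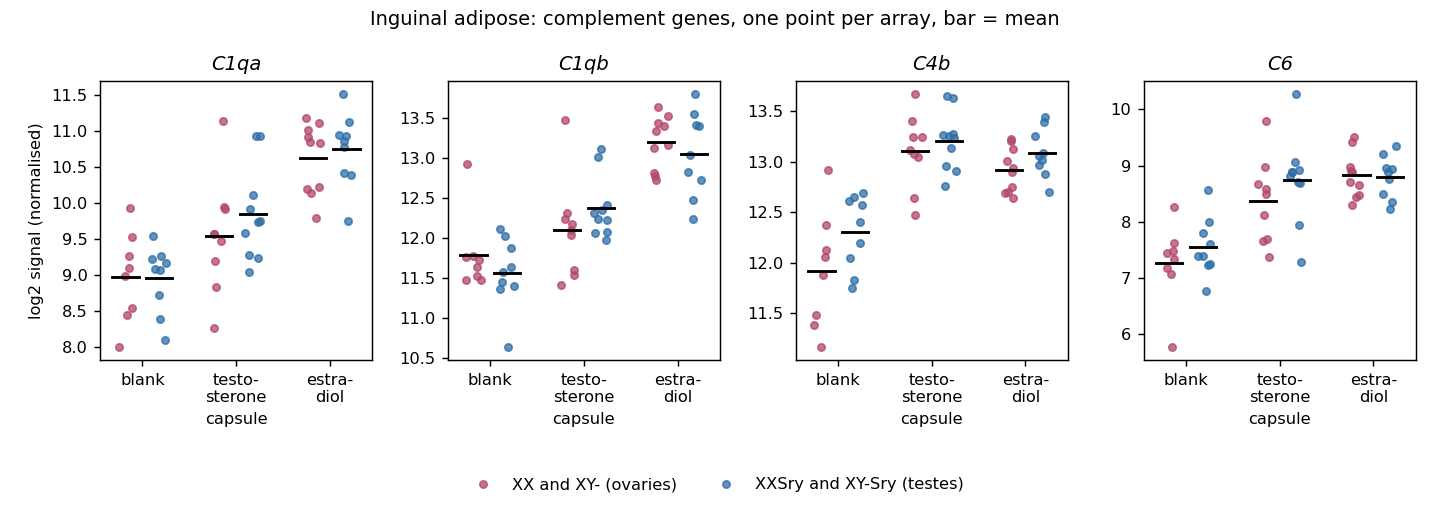
Normalised log2 signal of C1qa, C1qb, C4b and C6 in inguinal fat by capsule (17 blank, 19 testosterone, 19 estradiol arrays) and, in colour, by gonad type, with each array as a point and a bar at the mean. With estradiol C1qa lies between 9.75 and 11.52, where blank arrays run from 8.0 to 9.93.

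In fat 8 of 9 tested macrophage markers rose with estradiol, with a median difference of 1.11, and their summed level was 28486 to 56967 against 11367 to 44707 in blank arrays. With testosterone 1 of the 9 rose, the median difference was 0.29, and the summed level was 19809 to 45942. Of 8 endothelial markers, 5 fell with estradiol and 3 with testosterone, and of 8 adipocyte markers 3 fell with estradiol. None of 8 lymphocyte markers was called with testosterone (median -1.28) or estradiol (median -0.18), but their summed level ran from 258 to 29312 over the arrays. None of 8 skeletal muscle markers was called either, with medians of 0.13 and -1.08. The part of these cells in the rise of C1qa, C1qb and Cfp was not tested.

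By gonad type in fat, 1 gene of 35, C2, was called higher, with 5 at an unadjusted p below 0.05. Of all genes tested 2.68% were higher and 5.34% lower, and the medians were 0.23 for the genes and 0.031 for all probes. C2 ran from 11.81 to 12.77 in the 27 arrays of ovary lines (median 12.29) and from 11.93 to 13.17 in the 28 of testis lines (median 12.58). The difference was 0.23 ± 0.06 (limma, adjusted p = 0.00906), higher in 4 of 6 pairs of groups. With estradiol the lines did not overlap, at 12.10 to 12.32 and 12.41 to 12.70, while blank medians were 12.39 and 12.24. It was higher in the testis lines on 7 of 8 slides, and not called with median centring (adjusted p = 0.0551). Cfb was called too, at 0.32, with the slide as a fixed block (adjusted p = 0.0250). No interaction was called for the 35 genes by limma (1 and 2 at an unadjusted p below 0.05 for testosterone and estradiol, where 0.0184% and 0.929% of all genes tested were called), nor an effect of the sex chromosomes (5 unadjusted, 0.147% of all genes). The C2 interaction with estradiol was 0.44 (adjusted p = 0.256).

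Fgg and Proc are given in detail because their calls in fat change without the high-score arrays, and they were picked out after their values were seen. Their correlations with the hepatocyte score were 0.74 and 0.73. Over all 55 arrays their gonad differences, -1.04 ± 0.40 for Fgg, a fibrinogen chain, and -0.80 ± 0.31 for Proc, protein C, were not called (limma, adjusted p = 0.121 and 0.116). In the 48 arrays without a high score, Fgg ran from 5.24 to 9.44 in the 25 arrays of ovary lines (median 7.57) and from 4.89 to 8.31 in the 23 of testis lines (median 5.85). It was detected in 19 and 9 of them, so many testis-line values lay near background, and the difference in those arrays was -1.50 ± 0.20 (limma, adjusted p = 3.15e-07). Proc was detected in 17 of the 25 ovary-line arrays and 0 of the 23 testis-line arrays, with medians of 6.11 and 4.99. It was at least 1.09-fold higher in the ovary lines, taking for the testis lines the lowest signal among detected probes. The difference between measured levels was called (limma, adjusted p = 2.82e-11), and the bound itself was not tested. For gonad type 6.28% of all genes tested were called in those 48 arrays.

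In the same 48 arrays the Fgg level of ovary lines was 7.18 to 9.44 with blank capsules (detected in 8 of 8) and 5.24 to 7.37 with estradiol (detected in 3 of 9) and the ranges overlapped at their edges. That of testis lines was 5.11 to 7.23 with blank capsules (detected in 1 of 8) and 4.98 to 6.64 with estradiol (detected in 3 of 7). Fgg was thus at or near background in the testis lines with both capsules, where a further fall could not be seen, so no size is given for its estradiol effect or for the interaction with gonad type. Markers of mammary and other epithelium moved with these genes by gonad type: 6 of 7 were lower in the testis lines, with a median difference of -3.30, and their summed level was 3109 to 24309 in ovary lines and 327 to 5495 in testis lines. Their part was not tested.

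Of 41 other cascade genes tested in fat, testosterone raised 4 and lowered 1, estradiol raised 11 and lowered 4, and by gonad type 3 were higher and 1 lower in the testis lines. The shares over all genes tested were 2.18% and 2.95%, 10.3% and 11.5%, and 2.68% and 5.34%. With testosterone Serpine2 rose by 1.29 (not called with the slide as a block, adjusted p = 0.113) and F13a1, the catalytic subunit of factor XIII, by 0.81, while F2rl3, a thrombin receptor, was at -0.48 (detected in 12 of 19 and 17 of 17 arrays). With estradiol Thbs1, thrombospondin 1, was detected in 0 of 17 blank arrays. It was at least 2.85-fold higher, taking for blank arrays the lowest signal among well-detected probes. The difference between its measured levels was called (limma, adjusted p = 3.41e-09), and the bound itself was not tested. Vsig4, also among the macrophage markers, was called higher, detected in 18 of 19 estradiol and 1 of 17 blank arrays. F2rl3 was called lower, detected in 1 of 19 and 17 of 17, and F2r was lower at -0.75. By gonad type Itga2b, a platelet integrin chain (0.61), and Cd59b (0.44), an inhibitor of the membrane attack complex, were higher, and F2rl1, a protease-activated receptor, was lower (-0.96, detected in 7 of 28 testis-line and 21 of 27 ovary-line arrays).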

How the data were processed

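Bead intensities of each array (average signal per probe, not normalised, per the file headers) and a detection p-value per probe, as deposited, were used for 60 liver and 55 adipose arrays; the deposited bead standard errors (another measure, of no use to the tests) were left out. The submitters' processing notes name lumi, with no version. Intensities were background-corrected by normexp with negative controls inferred from the detection p-values (limma 3.58.1 in R 4.3.3, neqc), offset by 16, quantile-normalised and put on a log2 scale, per tissue. Probes with a detection p below 0.01 in at least 5 liver or 3 adipose arrays were tested (11317 and 14636 of 25697). A group-means model with 12 groups per tissue was fitted with lmFit and eBayes, with Benjamini-Hochberg adjustment over all tested probes. It was tried on simulated data with independent noise, no slide effect and no arrays with liver RNA, so that trial says nothing about those. Called genes are described, the 6 with the largest testosterone differences in liver and some of the others with their ranges. Of the other cascade genes the 2 largest in each direction are named. Arrays lay on 8 slides per tissue, none holding all capsules. By their labels, the fat arrays XXSry blank 2 and XY- blank 1 shared a slide with 4 liver arrays. Their hepatocyte scores, 7.92 and 7.66, were less than 2 above the median, so they count among the 48 fat arrays without a high score. Median raw intensity was 124 to 159 in liver and 130 to 230 in fat arrays, with 31.8% to 41.0% and 40.3% to 49.0% of probes detected. The number of arrays limits the precision. Genes and lists were chosen with earlier results of these data known. Promoters came from a table of RefSeq sequences (GRCm38.p6); the table used held no entry for C1qa, C2, C4b, Cfb, Cfi, Masp1, Plg, Proc, Kng1, Vwf and Thbd.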

Additional observations from a re-analysis of the deposited data

Results flagged for a closer look

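For the called genes with the largest differences, the spread within groups of 4 or 5 arrays was searched for single arrays far from the others, and 14 values stood out among 140 sets; chance alone flags about 1 set in 20. In liver the terminal components gave 4. C6 was 10.6 in XY- estradiol replicate 5, where the others were 8.19 to 8.74. XX blank replicate 5 was high for both C6 (8.89, others 8.02 to 8.27) and C8a (8.64, others 6.61 to 7.03). C9 was 13.8 in XY- testosterone replicate 3 (others 13.58 to 13.65).

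Of the myeloid genes in liver, XY- blank replicate 1 was high for both C1qb (11.7, others 10.46 to 10.81) and Cfp (12.9, others 11.36 to 11.66). C1qb was 10.5 in XXSry estradiol replicate 3 (others 10.18 to 10.24), and C1qa was 6.95 in XY- estradiol replicate 3, below the 7.63 to 7.88 of its group. F11 was 11.7 in XXSry estradiol replicate 1 (others 11.14 to 11.17).

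In fat, C1qa was 10.9 in XY-Sry testosterone replicate 5 (others 9.05 to 9.58). C1qb was 13.1 in XXSry testosterone replicate 5 (others 12.22 to 12.41) and 12.9 in XY- blank replicate 3 (others 11.47 to 11.77). C4b was 11.8 in XXSry blank replicate 2, below the 12.57 to 12.69 of its group, and C6 was 10.3 in XXSry testosterone replicate 3 (others 8.82 to 8.92).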

How the results depend on the processing

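The 42 calls named for the listed genes were each checked under 9 to 13 alternatives (another offset, scaling, filter, slide block, array weights or set of arrays). Of these 457 pairs of a call and an alternative, 419 kept the call, 38 lost it and 0 reversed. Leaving out 1 array at a time kept the call in 2430 of 2450 such pairs. Calls of a tissue share the same refits, so the pairs are not separate checks. Counts of called genes that moved by more than 1.5 times were these. In liver, estradiol gave 5 with median centring against 8, and estradiol by gonad type gave 1 (C2) with the slide as a random block against 0. In fat, testosterone gave 2 with median centring, with the slide as a fixed block, with only the arrays of the capsules compared and with the hepatocyte score and the slide together, and 3 without the high-score arrays, against 5. Gonad type in fat gave 0 with median centring, 2 with the slide block, 3 with array weights, with the hepatocyte score or without the high-score arrays, and 4 with score and slide, against 1. The sex chromosomes in fat gave 2 with array weights, and estradiol by gonad type 1 (Fgg, near background in the testis lines) with the score, with score and slide, or without the high-score arrays, both against 0. Leaving out each array gave 16 to 17 calls for testosterone, 7 to 9 for estradiol and 4 to 5 for gonad type in liver, and 2 to 5, 8 to 8 and 1 to 3 in fat; gonad type in fat gave 2 without XXSry blank replicate 1 and 3 without XY-Sry testosterone replicate 1. The sex chromosomes and both interactions gave 0 throughout. The cause of these shifts was not tested. No paired analysis was possible because replicate numbers were given in the order of the samples and pair nothing. Signal near background limits most of the genes in fat, where 10 were detected in no array without a high score.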
